A study of Homo sapiens with 43 samples.

Results

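The comparison described here sets B lymphoblastoid cells that had the BAF inhibitor BRM014 for 6 h against cells that had its solvent for the same time, with no stimulus in either group. It was defined by its labels and takes 4 of the 43 RNA-seq samples of the study. Both groups are GM12878, a human B cell line made by Epstein-Barr virus transformation. BRM014 at 10 µM, or an equal concentration of dimethyl sulfoxide (DMSO), was added 30 min before a mock stimulus labelled vehicle, and RNA was taken 6 h after that (2 BRM014 libraries and 2 DMSO libraries). The same experiment holds vehicle cells at 1 h and cells given 100 ng/mL interferon gamma (IFNg) or 500 nM dexamethasone (Dex) in place of vehicle, each with and without BRM014 and with 2 libraries a group. HepG2, a human liver carcinoma line, was also given 10 µM BRM014 or DMSO, for 24 h, with 2 libraries a group. All DMSO groups carry the solvent that the BRM014 groups carry. The work rests on 1 B cell line, and nothing in the labels ties the replicates to separate cultures, so p-values here measure the spread between these libraries, which may be technical.

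BAF (SWI/SNF) complexes are chromatin remodellers that use ATP to slide or evict nucleosomes and so keep enhancers and promoters open. Their motor is 1 of a pair of related ATPases, SMARCA4 (BRG1) or SMARCA2 (BRM), and BRM014 blocks the ATPase activity of both. In B lineage cells BAF acts beside lineage factors such as PU.1 and EBF1 at enhancers of receptor and signalling genes.

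The DMSO libraries held 15283296 and 22278350 counts and the BRM014 libraries 14504007 and 16769596. All 16 markers listed for B lymphoblastoid cells were detected in every library. In BRM014 12 of them fell (75%), 1 (PIM1) rose (6.25%) and 3 did not pass, with a median log2 fold change of -0.75. Among all genes tested 20.1% fell and 18.4% rose, with a median of 0.01. The list holds CD180, LAX1 and PIM1, which mark this comparison (below), so its counts and median partly follow from that choice. Sums of marker levels in this paragraph are in CPM (counts scaled to the library total), before the further TMM scaling used for all CPM values below. The B lymphoblastoid markers summed to 13062 to 14574.5 CPM in DMSO and 13483 to 13587 CPM in BRM014 libraries, most of it from CD74, at 10103 and 8670.3 CPM in DMSO and 10894 and 10785 CPM in BRM014. The 16 T and NK cell markers summed to 171 and 194 CPM in DMSO and 90.8 and 93.5 CPM in BRM014 libraries, and of these CD3D, CD3G, CD8A and NCAM1 were at 0 in all 4. LCK, TRAC and TRBC2 carried most of that sum. The 11 myeloid markers summed to 15.9 to 16.8 CPM in DMSO and 13.2 CPM in both BRM014 libraries, with S100A8 and CD163 at 0. The 12 hepatocyte markers summed to 1.44 to 2.38 CPM in DMSO and 1.65 to 3.34 CPM in BRM014 libraries. The 2 DMSO libraries differed from each other more than any other GM12878 pair used here, with a chi-square of 7.28 per degree of freedom against 3.29 for the BRM014 pair, so results below were also computed without each library. In bulk RNA fewer cells of a kind and less RNA per cell cannot be told apart, and a shift in total RNA per cell would not be seen, since CPM values are scaled to the library.

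By 6 h BRM014 cells differed from DMSO cells in a large share of their genes, with deep falls among receptors, signalling proteins and chemokines and shallower rises spread over many genes. Of 15183 genes that passed the filter on low counts, 5846 (38.5%) passed an adjusted p of 0.05 in edgeR's quasi-likelihood test, with 2795 higher (18.4%) and 3051 lower (20.1%) in BRM014. Most of these differences were small, and 61.0% of them were under 1.5-fold. Past 2-fold there were 1162 genes (7.65%), of which 895 fell and 267 rose. The median log2 fold change over all genes tested was 0.01. Both BRM014 libraries lay beyond both DMSO libraries in 10205 genes (67.2%), and in 99.8% of the genes that passed the test.

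**Figure D1:**
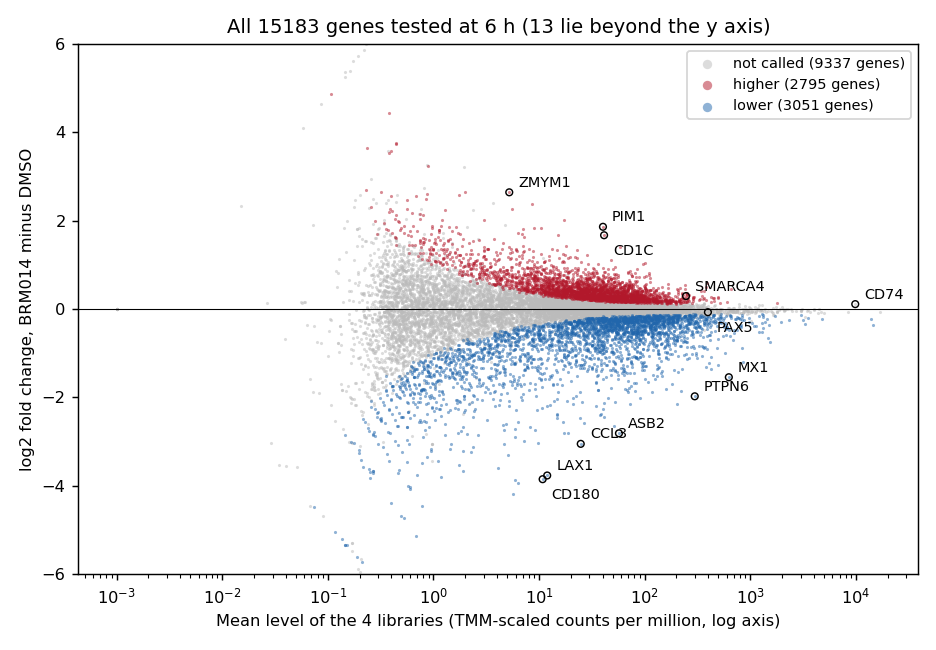
Each point is 1 of the 15183 genes tested, with the mean level over the 4 libraries (CPM, log axis) across and the log2 fold change of BRM014 against DMSO at 6 h upwards. Among the 3051 lower genes CD180 and LAX1 lie at folds over 10. Most of the 2795 higher genes crowd near the zero line, while 267 rose past 2-fold. The y axis leaves out 13 genes that lie beyond it.

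Size and direction were set against the level of the gene in DMSO cells, in TPM, a library-scaled level that also corrects for transcript length. The same DMSO libraries enter the fold change, so this ranking by itself leans low genes toward rises and high genes toward falls. Genes were ranked into 4 bands of equal size. In the highest band (above 33.5 TPM) 1176 fell and 624 rose. In the next band (the third) the order was the other way, with 754 lower and 1016 higher. The second band had 664 lower and 834 higher, and the lowest had 457 lower and 321 higher. Rises past 2-fold numbered 199 in the lowest band, 60 in the second, 7 in the third and 1 in the highest, while falls past 2-fold numbered 383, 273, 113 and 126 in the same order. Long non-coding RNA genes made up 24.3% of the rises past 2-fold, 12.1% of the falls past 2-fold and 9.90% of all genes tested.

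CD180, LAX1 and PIM1 mark this comparison, the first pair as deep falls of surface and signalling genes and the third as a strong rise. CD180 is a Toll-like receptor homologue on B cells that pairs with LY86, LAX1 is a membrane adaptor that dampens lymphocyte receptor signalling, and PIM1 is a serine/threonine kinase that promotes survival. In the files CD180 is ENSG00000134061.5 (chromosome 5, 67179613 to 67196799, minus strand), LAX1 is ENSG00000122188.12 (chromosome 1, 203765177 to 203776372, plus strand) and PIM1 is ENSG00000137193.13 (chromosome 6, 37170152 to 37175428, plus strand), on hg38. Their promoter sequences are shown because these genes mark the comparison in both directions. Each line is the 250 bases before the RefSeq start site on the gene's own strand (GRCh38.p14), with a match to the AP-1 motif TGANTCA in capitals. CD180 is at chr5:67196800-67197049, LAX1 at chr1:203764933-203765182 and PIM1 at chr6:37169902-37170151.
CD180: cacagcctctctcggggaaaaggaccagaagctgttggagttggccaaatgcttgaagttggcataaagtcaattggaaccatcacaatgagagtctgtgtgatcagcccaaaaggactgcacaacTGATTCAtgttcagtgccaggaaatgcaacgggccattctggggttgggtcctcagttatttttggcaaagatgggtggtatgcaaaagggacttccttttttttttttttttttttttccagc
LAX1: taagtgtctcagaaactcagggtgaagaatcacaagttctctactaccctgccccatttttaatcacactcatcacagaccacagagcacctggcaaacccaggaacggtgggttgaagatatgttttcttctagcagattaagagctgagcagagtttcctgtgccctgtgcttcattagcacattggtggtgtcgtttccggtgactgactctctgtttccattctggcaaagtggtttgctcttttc
PIM1: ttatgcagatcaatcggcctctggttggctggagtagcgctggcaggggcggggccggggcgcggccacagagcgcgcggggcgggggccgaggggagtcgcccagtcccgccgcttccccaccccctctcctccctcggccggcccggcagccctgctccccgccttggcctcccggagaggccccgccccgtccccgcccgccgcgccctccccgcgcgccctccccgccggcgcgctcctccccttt
The CD180 window holds 1 AP-1 match, from 124 to 118 bases before the start, and the other two hold no match to the motifs searched. GC content is 44.8% for CD180, 46.4% for LAX1 and 79.6% for PIM1.

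CD180 stood at 20.7 and 19.8 CPM in the DMSO libraries and at 1.62 and 1.19 CPM in the BRM014 libraries. LAX1 stood at 21.8 and 22.7 CPM in DMSO and at 1.43 and 1.81 CPM in BRM014. PIM1 stood at 18.4 and 16.5 CPM in DMSO and at 61.5 and 64.8 CPM in BRM014. The groups do not overlap for any of these genes, as was so for 67.2% of all genes tested. The replicates lie close together beside the gap. CD180 fell 14.4-fold (log2 fold change -3.85, SE 0.20, adjusted p 4.2e-16), LAX1 fell 13.6-fold (-3.77, SE 0.17, adjusted p 3.2e-17) and PIM1 rose 3.63-fold (1.86, SE 0.10, adjusted p 4.8e-15). On the length-corrected scale CD180 went from 4.85 and 4.81 TPM to 0.41 and 0.30 TPM, LAX1 from 11.3 and 11.7 TPM to 1.11 and 0.97 TPM, and PIM1 from 11.1 and 8.67 TPM to 32.9 and 34.7 TPM.

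The 14 deepest falls among genes whose higher group averaged 5 CPM or more were led by CCL4, a chemokine that draws T cells and monocytes. It stood at 12.2 and 11.4 CPM in DMSO and 0.843 and 0.680 CPM in BRM014 (log2 fold change -3.95, SE 0.25, adjusted p 6.2e-14). Its neighbour CCL3 went from 48.0 and 40.7 CPM to 4.80 and 5.78 CPM (-3.05, SE 0.12). Each has a near-identical copy in the genome, so reads may be split between copies. DEPP1 (-3.88), TLR9, the endosomal receptor for unmethylated CpG DNA (-3.59, SE 0.59), the adhesion receptor CEACAM1 (-3.30), the receptor TREML2 (-3.05), the transcription factor EGR3 (-3.03), the chemokine receptor CCR1 (-2.98), the adhesion G protein-coupled receptor ADGRD1 (-2.89), ASB2 (-2.81), a ubiquitin ligase subunit, and RGS3, a regulator of G protein signalling (-2.80), complete the set with CD180, LAX1 and RAB43. ASB2 was the most abundant, at 103 and 97.4 CPM in DMSO and 13.2 and 15.2 CPM in BRM014. TLR9 varied more between its libraries, at 5.48 and 9.68 CPM in DMSO and 0.454 and 0.793 CPM in BRM014. It overlaps another gene on its own strand, and CEACAM1, DEPP1 and EGR3 overlap genes on the opposite strand. The counts of these genes are therefore uncertain. RAB43 (-2.80, SE 0.51, adjusted p 7.7e-04) shares its span with a readthrough gene, and its adjusted p was 0.055 when the fit held these 4 libraries alone. On the length-corrected scale its difference was smaller, from 11.4 and 9.03 TPM to 5.91 and 5.24 TPM.

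The 14 largest rises by the same rule were smaller and came from low-expressed genes. ZMYM1, a zinc finger protein, rose most, from 1.67 and 1.25 CPM to 8.69 and 9.29 CPM (log2 fold change 2.64, SE 0.25, adjusted p 6.9e-10). AMN1 (2.37), CCDC121 (2.27), the zinc finger factor ZNF341 (2.02), PIM1 (1.86), MFSD13A (1.83), AMZ2P1 (1.82), CFAP418 (1.71), LINC02980 (1.69), SAYSD1 (1.68), CD1C (1.67), ZFP69B (1.64), C3orf18 (1.58) and the deubiquitinase USP51 (1.49) followed. CD1C, which presents lipid antigens and is found on marginal zone B cells, was among the few well expressed, at 20.2 and 19.4 CPM in DMSO and 64.3 and 61.4 CPM in BRM014. CCDC121, AMN1, C3orf18 and MFSD13A overlap other genes and AMZ2P1 is a pseudogene, so their counts are uncertain. Genes with a ZNF, ZFP, ZSCAN or ZKSCAN symbol, a class singled out after its values were seen, rose in 176 of 537 tested (32.8%, beside 18.4% of all genes) and fell in 38 (7.08%, beside 20.1%).

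**Figure D2:**
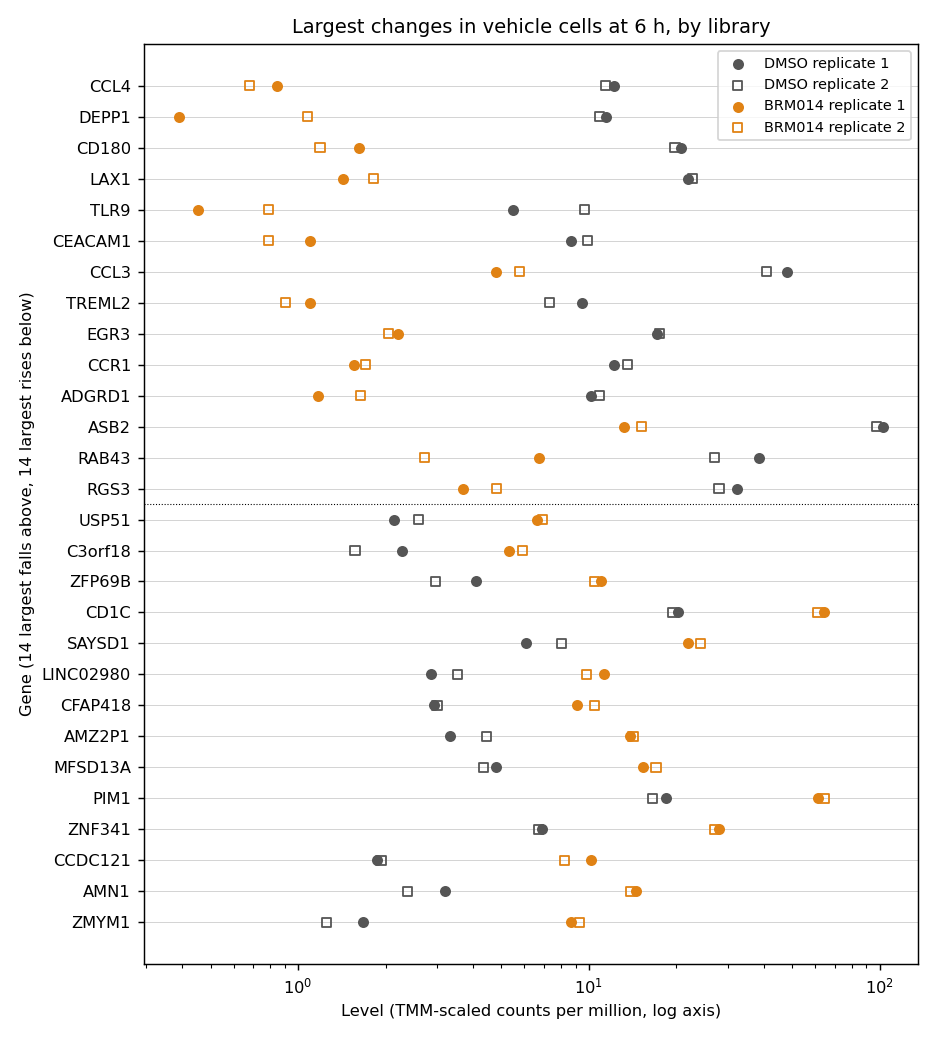
Level in each of the 4 libraries (CPM, log axis) for the 14 largest falls (above the dotted line) and the 14 largest rises (below it) at 6 h, with filled circles for replicate 1 and open squares for replicate 2. The rule that picked these genes required both BRM014 libraries (orange) to lie on the same side of both DMSO libraries (grey). The gap is wider for the falls.

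Genes of the inhibited complex itself changed modestly. SMARCA4 rose from 228 and 215 CPM to 264 and 279 CPM (log2 fold change 0.29, SE 0.05, adjusted p 3.1e-05), and SMARCA2 fell from 676 and 706 CPM to 496 and 525 CPM (-0.44, SE 0.05, adjusted p 3.2e-09). The core subunits SMARCC1 (-0.52) and SMARCB1 (-0.40) also fell, and BICRAL, a subunit of the non-canonical BAF complex, rose from 55.1 and 59.3 CPM to 97.6 and 95.0 CPM (0.75). Of 28 listed subunits 26 were measured, and 11 rose, 3 fell and 12 did not pass, with a median of 0.12. The 11 rises became 7 without BRM014 replicate 1 or without DMSO replicate 2. At 1 h 0 of the 26 passed. Counts of list members in vehicle cells at 6 h, here and below, stand beside 18.4% higher and 20.1% lower among all genes.

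B cell surface receptors fell almost as a whole. Of 36 measured (37 listed), 34 fell, 17 of them past 2-fold, 0 rose, and FCGR2B (-0.13) and CD80 (-0.10) did not pass. The median was -0.88, beside 0.01 for all genes. CD22, an inhibitory co-receptor that binds sialic acid, went from 193 and 186 CPM to 61.5 and 64.4 CPM (-1.59, SE 0.06). The self-ligand receptor SLAMF1 went from 217 and 217 CPM to 72.0 and 80.5 CPM (-1.51), SLAMF7 from 561 and 567 CPM to 244 and 240.0 CPM (-1.22), and CD48, the ligand of CD244, from 371 and 354 CPM to 173 and 165 CPM (-1.10). These 4 genes were named for the smallest adjusted p of the list, which favours wide gaps and close replicates. The antigen receptor chain CD79B fell too, from 76.9 and 73.4 CPM to 21.9 and 21.8 CPM (-1.78).

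Downstream of the receptor, 31 of 40 genes of B cell receptor signalling fell and 5 rose, with a median of -0.51 and 8 falls past 2-fold. LAX1, which marks this comparison, is on this list and is counted among those falls. The falls took in both brakes and drivers of the pathway. PTPN6 (SHP-1), the phosphatase recruited by inhibitory receptors, went from 499 and 452 CPM to 117 and 125 CPM (-1.98, SE 0.06, adjusted p 6.7e-21). DOK3, an inhibitory adaptor, went from 112 and 107 CPM to 29.8 and 29.8 CPM (-1.87), and the SRC-family kinase FGR from 112 and 115 CPM to 32.0 and 35.7 CPM (-1.75). The 5 rises were BLNK (0.47), the adaptor that links SYK to phospholipase C, its partner PLCG2 (0.25), PIK3IP1, PTPN22 and NFATC3 (0.16). They became 3 without BRM014 replicate 2, without DMSO replicate 1 or without DMSO replicate 2. LCK, a SRC-family kinase listed here as a T cell marker, fell from 89.7 and 80.2 CPM to 19.3 and 19.9 CPM (-2.11) while CD3D and CD3G were at 0.

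Toll-like receptor genes fell beside CD180. Of 24 listed, 18 were measured and 13 fell, 6 past 2-fold, with IRAK4 (0.29) as the 1 rise (2 rises with the replicate number as a block). CD180 itself is on this list and is counted among those falls. TLR7, the endosomal sensor of single-stranded RNA, went from 144 and 158 CPM to 48.6 and 51.9 CPM (-1.59). UNC93B1, which escorts TLR7 and TLR9 to endosomes, went from 80.8 and 70.4 CPM to 29.2 and 28.3 CPM (-1.39), and the adaptor MYD88 from 135 and 128 CPM to 60.7 and 65.7 CPM (-1.05). Receptor, escort and adaptor of this pathway were all lower. Among the PIM kinases PIM1 rose, PIM2 was 0.20 higher (adjusted p 0.037) and PIM3 did not pass (0.09). The PIM2 call was lost without DMSO replicate 2, BRM014 replicate 1 or BRM014 replicate 2.

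Most transcription factors that set B cell identity fell. Of 30 measured, 21 fell, 0 rose (1 without DMSO replicate 2) and 9 did not pass, with a median of -0.55. POU2AF1 (OCA-B), the co-activator of octamer sites, went from 447 and 404 CPM to 198 and 197 CPM (-1.11), IRF8 from 245 and 238 CPM to 117 and 122 CPM (-1.02), RUNX3 from 319 and 298 CPM to 190.1 and 199 CPM (-0.67) and MEF2B, which overlaps a readthrough gene, by a log2 change of -1.33. PAX5, the master regulator of the B lineage, stood at 401 and 413 CPM in DMSO and 374 and 401 CPM in BRM014 (-0.07, SE 0.05, adjusted p 0.27), and EBF1 was low throughout, at 9.75 and 9.59 CPM against 7.72 and 8.21 CPM (-0.28, SE 0.14, adjusted p 0.13). Those last genes were named after their values were seen. Of 13 plasma cell genes 6 fell and XBP1 rose (0.26), and PRDM1 (BLIMP-1, -1.34), SDC1 (CD138, -1.26), TXNDC5, which overlaps a readthrough gene and fell from 793 and 758 CPM to 402 and 372 CPM, and MZB1 (-0.80) were among the falls.

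Secreted signals and their receptors were lower as well. Of 26 chemokine and cytokine genes measured (29 listed), 18 fell, 12 past 2-fold, with TNFSF9 as the 1 rise and a median of -1.07. Beside CCL3 and CCL4, CSF1, the macrophage growth factor, went from 70.3 and 57.7 CPM to 13.4 and 10.8 CPM (-2.40) and IL16 from 149 and 143 CPM to 35.7 and 35.9 CPM (-2.02). Of 27 cytokine receptors 19 fell and IL15RA rose, with a median of -0.70. CSF2RB, the shared beta chain of the GM-CSF, IL-3 and IL-5 receptors, went from 41.6 and 41.4 CPM to 6.94 and 7.99 CPM (-2.47), and IL10RA (-1.35), IL2RB (-0.94) and IL21R (-0.75) fell less. The TNFSF9 call was lost without DMSO replicate 2 or BRM014 replicate 2, and the IL15RA call without DMSO replicate 1, DMSO replicate 2 or BRM014 replicate 1.

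Homing and adhesion genes fell in 24 of 29 measured (30 listed) and rose in 0, with a median of -0.65. CCR1 went from 12.2 and 13.6 CPM to 1.56 and 1.70 CPM (-2.98), and CCR9, the receptor for the gut chemokine CCL25, from 23.0 and 26.1 CPM to 4.47 and 5.04 CPM (-2.37). ITGAL, the alpha chain of the integrin LFA-1, went from 185 and 181 CPM to 50.9 and 49.2 CPM (-1.87), and CD58 fell by 0.95 on the log2 scale. RGS genes, which shorten signals from such G protein-coupled receptors, fell in 6 of 10 measured and rose in 0, with RGS3 (-2.80), RGS1 (-0.95) and RGS16 (-0.75) among them.

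Genes driven by NF-kB fell in 19 of 30 and rose in 2, BIRC3 (0.40) and BCL3 (0.45), with a median of -0.38. Host genes that the viral proteins EBNA2 and LMP1 are known to induce fell in 15 of 22 and rose in 1, again BIRC3, with a median of -0.63. TRAF1, a signalling adaptor on both lists, went from 619 and 609 CPM to 229 and 253 CPM (-1.35), and LTB (lymphotoxin beta) from 82.5 and 83.5 CPM to 29.1 and 29.9 CPM (-1.49). MYC went from 53.6 and 55.8 CPM to 27.5 and 27.5 CPM (-0.99, SE 0.07). Of 32 immediate-early genes measured 24 fell and 2 rose, the mRNA-decay factor ZFP36L2 (0.73) and the nuclear receptor NR4A2 (0.78), with a median of -0.62. EGR3 (-3.03), IER3 (-1.96) and EGR2 (-1.41) led those falls. The NR4A2 call was lost without BRM014 replicate 2.

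Interferon-stimulated genes were lower without any added interferon. Of 37 measured 35 fell, 18 past 2-fold, and IFIH1 (MDA5), a sensor of double-stranded RNA, rose (0.24), with a median of -0.96. The synthetase OAS2 went from 353 and 312 CPM to 70.6 and 79.5 CPM (-2.14, SE 0.07), OAS1 from 127 and 109 CPM to 26.2 and 27.1 CPM (-2.14), the antiviral GTPase MX1 from 979 and 888 CPM to 305 and 335 CPM (-1.54) and IFIT3 from 126 and 126 CPM to 36.6 and 41.8 CPM (-1.68). These 4 were well expressed in DMSO cells and were named for the smallest adjusted p of the list, which favours wide gaps. The factor IRF7, which drives type I interferon, fell by 1.25 on the log2 scale.

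Genes of class I antigen presentation were mostly lower. Of 19 class I genes measured (20 listed) 16 fell and 0 rose, with a median of -0.29. The class I transactivator NLRC5 went from 113 and 119 CPM to 52.3 and 55.6 CPM (-1.10), the immunoproteasome subunits PSMB10 and PSMB8 fell by 0.48 and 0.34 on the log2 scale, and HLA-E went from 1362 and 1236 CPM to 979.9 and 1006 CPM (-0.39). Of 18 class II genes 5 fell (27.8%, beside 20.1% of all genes), 2 rose (11.1%, beside 18.4%) and 11 did not pass, with a median of -0.02, so the list as a whole stood near the background. The class II transactivator CIITA went from 322 and 328 CPM to 119 and 134 CPM (-1.36), and the peptide-exchange inhibitor HLA-DOB (-1.01), the thiol reductase IFI30 (-0.45), HLA-DQB1 (-0.27) and HLA-DMB (-0.12) were the other falls, the last lost under several left-out libraries. RFX5, which binds class II promoters, rose from 200.1 and 192 CPM to 286 and 287 CPM (0.55), and the protease CTSS rose by 0.26. The most abundant genes of the list, named after their values were seen, did not pass: HLA-DRA stood at 3739.8 and 3439 CPM in DMSO and 3541 and 3518 CPM in BRM014 (-0.02, SE 0.05), and CD74 at 10312 and 8658 CPM against 10246 and 10246 CPM (0.11, SE 0.06). CIITA was thus lower at 6 h while HLA-DRA and CD74, known targets of it, differed by less than the spread between the DMSO libraries.

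Of 15 genes of the BCL2 family measured (17 listed), 10 fell and 2 rose (BCL2L12 and BAD), with a median of -0.38. Both killers and protectors were among the falls. BMF, a pro-death member, went from 126 and 127 CPM to 35.2 and 34.6 CPM (-1.86), and the protectors BCL2A1 (-1.02), BCL2 (-0.63) and MCL1 (-0.38) fell less. Of 25 p53 targets 12 fell and 3 rose (SESN1, XPC and FDXR), with a median of -0.25. The cell cycle inhibitor CDKN1A (p21) went from 282 and 264 CPM to 101 and 108 CPM (-1.39), and TP53INP1 (-0.96), TNFRSF10B (-0.60) and BTG2 (-0.41) fell as well. The 3 rises became 1 without BRM014 replicate 2, and BCL2L12 was lost without DMSO replicate 2.

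Genes of S phase were higher in 20 of 30, lower in 0, and had a median of 0.28. E2F1, the factor that switches this program on, went from 40.9 and 40.6 CPM to 63.5 and 68.3 CPM (0.70, SE 0.07), and the clamp loader subunit RFC4 from 29.8 and 29.9 CPM to 46.8 and 46.8 CPM (0.65). The helicase subunits MCM6 and MCM4 went from 112 and 113 CPM to 149.5 and 163 CPM (0.48) and from 184 and 168 CPM to 236 and 235 CPM (0.42). The rises were small. E2F1, RFC4, MCM6 and MCM4 were named for the smallest adjusted p of the list, which favours close replicates. Of 26 genes of G2 and M phase 4 were higher (KIF11 at 0.40 among them) and 4 lower (HMMR at -0.43 among them), 15.4% each way beside 18.4% and 20.1% of all genes, with a median of 0.04, and the 4 rises became 1 without BRM014 replicate 2. Cell numbers and cell cycle phase were not analysed here.

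Metabolic, stress and growth lists were mixed, and their shares stand beside 20.1% lower and 18.4% higher among all genes. Of 27 ATF4 and unfolded protein response genes 12 fell (44.4%), PPP1R15A (-0.97) and ATF5 (-0.91) among them. Another 5 rose (18.5%, near the share of all genes), ASNS (0.66) and SLC7A5 (0.58) among them. Of 29 sterol and fatty acid genes 11 fell (37.9%), FADS2 (-0.77) among them, and 8 rose (27.6%). Those sterol counts became 6 without BRM014 replicate 1 and 7 without DMSO replicate 1 for the falls, and 3 without BRM014 replicate 2 and 5 without DMSO replicate 2 for the rises. Of 18 heat shock chaperones 8 fell (44.4%), DNAJA1 (-0.71) among them, and 4 rose (22.2%). Those 4 rises became 2 without BRM014 replicate 2 and 1 without DMSO replicate 2. Of 29 ribosome biogenesis genes 5 fell (17.2%) and 1 rose (3.45%), both under the shares of all genes. Of 11 MYC network genes 6 fell (54.5%), MNT (-1.01) among them, and 1 rose (9.09%). The ribosome biogenesis falls became 3 without DMSO replicate 1, its rise was lost without BRM014 replicate 2 or DMSO replicate 2, and the MYC network rise was lost without BRM014 replicate 1 or DMSO replicate 1.

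**Figure D3:**
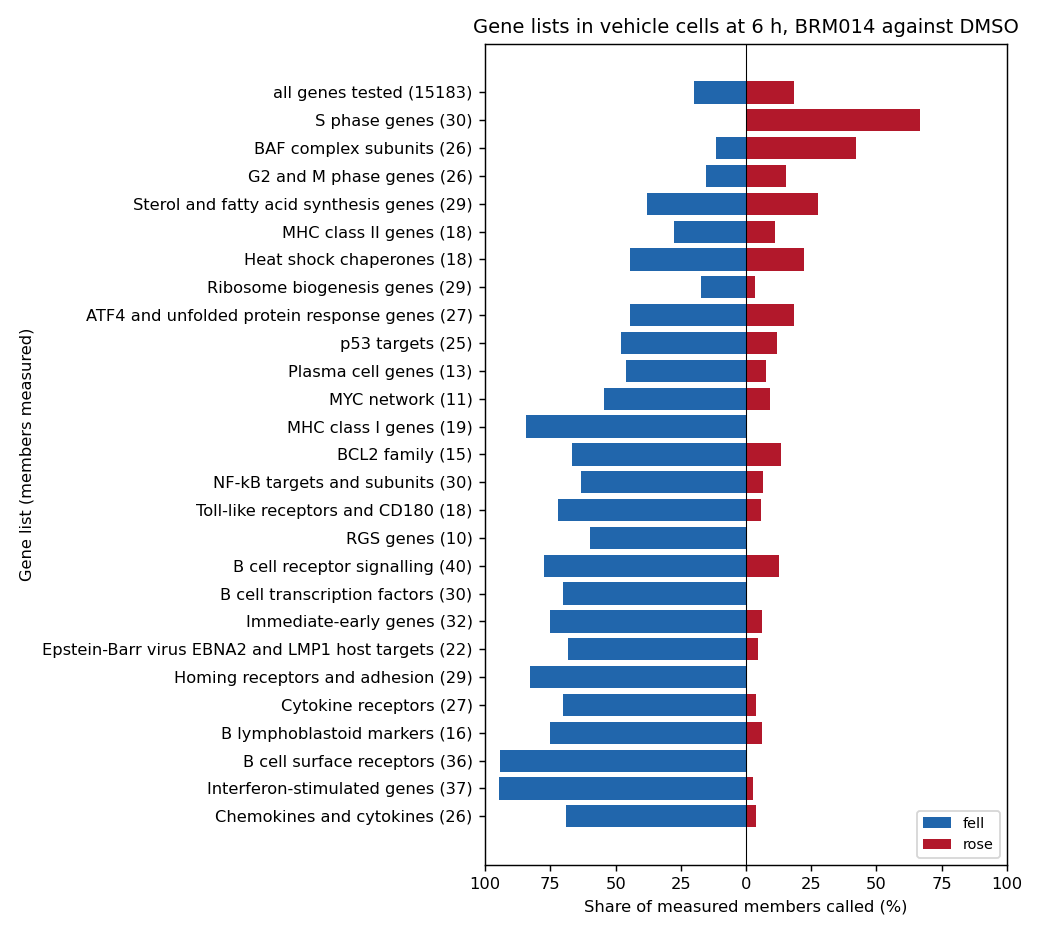
Share of each list's measured members (number in brackets) that fell (blue, to the left) or rose (red, to the right) in BRM014 at 6 h, sorted by the list's median, with all 15183 genes on top at 20.1% and 18.4%. The S phase bar has a right side and no left side (20 of 30 rose and 0 fell), and the receptor, chemokine and interferon bars point left.

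At 1 h, in separate libraries, far fewer genes passed than at 6 h. At 1 h 312 genes passed (2.05%), 91 higher (0.599%) and 221 lower (1.46%), and 5570 of the 5846 genes called at 6 h (95.3%) were not among them. The 1 h count rested on each library, and was 149 without DMSO replicate 2, 177 without DMSO replicate 1, 198 without BRM014 replicate 1 and 203 without BRM014 replicate 2. A test of the difference between the BRM014 effects at the 2 times passed for 2844 genes (18.7%), 1115 toward higher (7.34%) and 1729 toward lower (11.4%) at 6 h. Of the genes called at 6 h, 2759 (47.2%) lay farther from 0 than at 1 h by that test, 3 lay nearer, and for 3084 (52.8%) the difference between the times did not pass.

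Most genes that passed at 1 h passed in the same direction at 6 h. Of the 221 genes lower at 1 h, 205 were lower at 6 h. By the test of the difference 106 had gone farther, 6 had come back and 109 did not pass, and their median moved from -0.50 to -0.93. Of the 91 higher at 1 h, 64 were higher at 6 h, and by the same test 10 had gone farther, 21 had come back and 60 did not pass, and their median moved from 0.50 to 0.39. The 6 h libraries took no part in choosing these genes, but a set picked for passing at 1 h leans toward overstated 1 h values.

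CD180, LAX1 and PIM1 had moved by 1 h. CD180 stood at 25.5 and 22.3 CPM in DMSO and 7.28 and 7.17 CPM in BRM014 at 1 h, LAX1 at 27.1 and 24.3 CPM against 8.82 and 8.77 CPM, and PIM1 at 17.9 and 19.1 CPM against 42.1 and 41.5 CPM. Between 1 h and 6 h the BRM014 effect went farther by -2.13 (SE 0.27, adjusted p 5.0e-07) for CD180, by -2.22 (SE 0.23, adjusted p 1.7e-08) for LAX1 and by 0.69 (SE 0.15, adjusted p 9.8e-04) for PIM1. IER3, an early response gene, had its full change at 1 h, from 39.5 and 40.8 CPM to 9.71 and 10.8 CPM, with a log2 fold change of -1.96 at both times. The opposite course was that of ADGRD1, which stood at 8.24 and 10.1 CPM in DMSO and 10.2 and 10.1 CPM in BRM014 at 1 h and fell by 2.89 on the log2 scale at 6 h. CCL4 was already lower at 1 h, at 9.83 and 10.2 CPM against 4.60 and 3.90 CPM, and fell further.

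The counts of lower members at 1 h stand beside 1.46% of all genes, and the whole 1 h count moved with each library as given above. Of the 29 homing genes 10 were lower at 1 h and 24 at 6 h, and of the 25 p53 targets 7 at 1 h and 12 at 6 h, with CDKN1A at 231 and 237 CPM in DMSO and 114 and 128 CPM in BRM014 at 1 h. Of the 36 surface receptors 4 were lower at 1 h and 34 at 6 h. Of the 37 interferon-stimulated genes 3 were lower at 1 h and 35 at 6 h, IFIT3 (-0.84 at 1 h) among the 3. Of the S phase genes 0 passed at 1 h. Immediate-early genes were split at 1 h, with 9 higher and 8 lower of 32, beside 0.599% and 1.46% of all genes. Differences between lists were not tested.

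A small set turned round between the times, with 6 genes higher at 1 h and lower at 6 h and 1 gene the other way. The MAP kinase phosphatase DUSP4 stood at 68.0 and 75.9 CPM in DMSO and 96.7 and 99.1 CPM in BRM014 at 1 h (0.44), and at 66.6 and 60.3 CPM against 40.5 and 41.9 CPM at 6 h (-0.62). DUSP5 (0.42 and -0.43), the activation marker CD69 (0.68 and -0.38), EGR1 (0.74 and -0.38), BTG2 (0.30 and -0.41) and PNRC1 (0.27 and -0.20) took the same course, and DSE (-0.27 and 0.24) the reverse. Of these DUSP4, DUSP5 and CD69 kept their 1 h call whichever library was left out. BTG2, EGR1, PNRC1 and DSE lost it for at least 1 library. EGR1 also lost its 6 h call, without DMSO replicate 1 (-0.25, adjusted p 0.29), BRM014 replicate 1 or BRM014 replicate 2, and under DESeq2's Wald test. These genes were named after their values were seen.

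**Figure D4:**
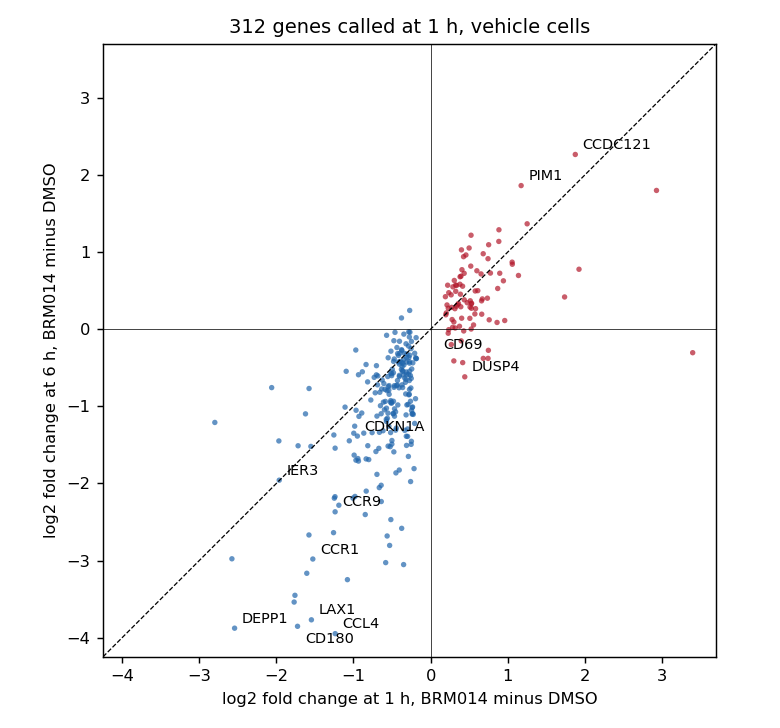
Log2 fold change of BRM014 against DMSO at 1 h (across) and at 6 h (upwards) for the 312 genes called at 1 h, with the dashed line where both are equal. Genes lower at 1 h (blue) mostly lie under the line, as CD180 and LAX1 do, IER3 lies on it, and CD69 and DUSP4 are among the few on opposite sides of 0.

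The effect in unstimulated cells was largely found again under IFNg and under Dex, in libraries that share no sample with it. BRM014 at 6 h gave 5109 called genes under IFNg (33.6%) and 5730 under Dex (37.7%), where the IFNg count was 3150 without DMSO replicate 2 of the IFNg arm. Of the 3051 falls in vehicle cells, 74.5% were also called lower under IFNg and 73.9% under Dex, which is 80.2% and 71.9% of those arms' own falls (18.7% and 20.6% of genes tested). Of the 2795 rises, 61.0% and 65.3% were also called higher, which is 74.9% and 70.4% of those arms' own rises (15.0% and 17.1% of genes tested). Genes called in opposite directions numbered 8 under IFNg and 32 under Dex.

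CD180 stood at 9.0 and 14.4 CPM in DMSO and 0.936 and 0.912 CPM in BRM014 under IFNg, and at 16.8 and 15.0 CPM against 1.40 and 0.938 CPM under Dex. LAX1 stood at 16.6 and 21.2 CPM against 2.34 and 1.30 CPM under IFNg, and at 17.6 and 18.5 CPM against 1.04 and 1.10 CPM under Dex. PIM1 stood at 22.6 and 15.3 CPM against 56.7 and 58.6 CPM under IFNg, and at 25.7 and 26.2 CPM against 72.4 and 70.1 CPM under Dex. All 3 genes kept their direction in both arms. The difference of the vehicle effect from the mean of the stimulated effects was -0.13 for CD180, -0.06 for LAX1 and 0.32 for PIM1, and did not pass for any of them. Counts over the lists were near those in vehicle cells for some lists and not for others. Among all genes 18.7% were lower and 15.0% higher under IFNg, and 20.6% lower and 17.1% higher under Dex. Surface receptors were lower in 32 and 30 of 36 under IFNg and Dex, and interferon-stimulated genes in 32 and 28 of 37. S phase genes were higher in 17 and 10 of 30, with 0 and 3 lower, beside 20 higher and 0 lower in vehicle cells. Chemokines and cytokines were lower in 19 and 12 of 26, beside 18, and of the PIM kinases 1 was higher and 1 lower in each arm. Whether a list's counts differed between the arms was not tested.

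That difference passed for 117 genes (0.771%), 63 toward higher (0.415%) and 54 toward lower (0.356%) in vehicle cells, and the count was 41 without BRM014 replicate 1 of the vehicle cells, 58 without BRM014 replicate 2, 73 without DMSO replicate 1, 57 without DMSO replicate 2, 71 without BRM014 replicate 1 under IFNg, 74 without DMSO replicate 1 under Dex and 182 without DMSO replicate 2 under IFNg. FKBP5, a known glucocorticoid target, stood at 141 and 136 CPM in DMSO and 100 and 109 CPM in BRM014 in vehicle cells, and at 920 and 930 CPM against 231 and 222 CPM under Dex (difference of effects 0.75, SE 0.06, adjusted p 2.2e-08). RHOB, a small GTPase, stood at 12.4 and 11.4 CPM against 14.4 and 13.8 CPM in vehicle cells and at 40.0 and 39.1 CPM against 10.3 and 12.6 CPM under Dex (1.22, SE 0.14, adjusted p 3.4e-06). In vehicle cells FKBP5 fell by 0.41 on the log2 scale and RHOB did not pass (0.25), while under Dex both stood higher in DMSO libraries and far lower in BRM014 libraries. CRYBG1 went the other way, with a fall in vehicle cells (-1.01) and under IFNg, from 179.6 and 227 CPM to 114 and 123 CPM, and 339 and 338 CPM against 371 and 378 CPM under Dex (difference -0.69, SE 0.09, adjusted p 1.2e-04). NTNG1 stood at 5.41 and 5.29 CPM in DMSO and 1.82 and 1.93 CPM in BRM014 in vehicle cells, while its DMSO levels of 2.29 and 2.99 CPM under IFNg and 2.01 and 1.70 CPM under Dex were close to the BRM014 levels there. Its call was lost without either BRM014 library of the vehicle cells. LBH, a transcription cofactor, fell in all 3 settings, from 49.4 and 41.7 CPM to 7.91 and 7.25 CPM in vehicle cells and from 46.1 and 47.9 CPM to 17.1 and 17.5 CPM under Dex (difference -0.80, SE 0.12, adjusted p 2.6e-04).

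**Figure D5:**
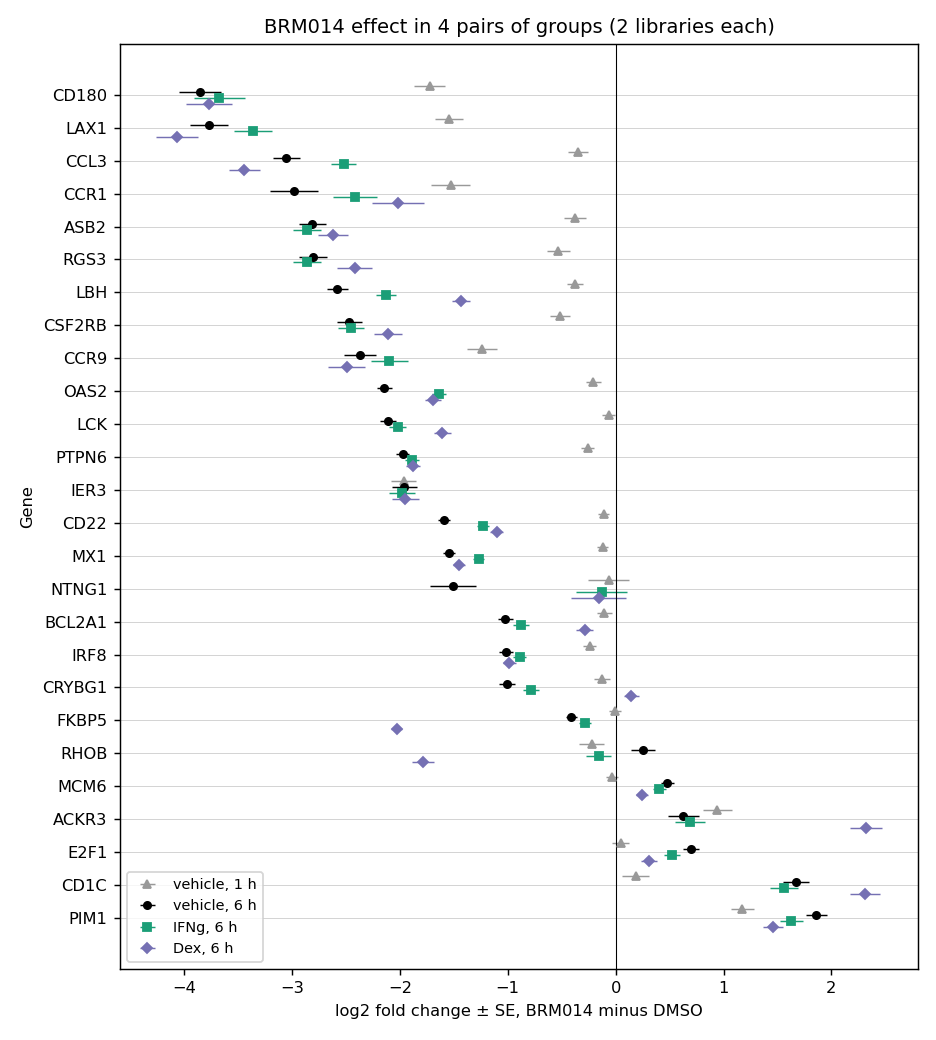
Log2 fold change of BRM014 against DMSO with its SE for 26 genes in vehicle cells at 1 h (grey) and 6 h (black) and at 6 h under IFNg (green) and Dex (purple), each from 2 libraries a group. At 6 h the 3 marks of CD180 and of IER3 lie close together, and those of LAX1 range from -3.36 under IFNg to -4.06 under Dex. All 3 marks of PIM1 lie to the right of 0. Those of FKBP5 and RHOB under Dex lie far to the left, and the 1 h marks mostly sit nearer 0.

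In HepG2 the inhibitor was given for 24 h, so values are set side by side and not compared. There 5617 of 13349 genes passed (42.1%), 2580 higher (19.3%) and 3037 lower (22.8%), and 1 of its BRM014 libraries held 3055377 counts. CD180, LAX1 and OAS2 did not pass the low-count filter in HepG2. PIM1 was lower in HepG2 (-0.48, SE 0.09), where it rose in GM12878, and MYC was higher (0.42, SE 0.09), where it fell. IER3 (-0.75) and MX1 (-1.06) were lower in both lines, as was SMARCA2 (-0.58), and SMARCA4 (0.56) was higher in both. Of 11920 genes tested in both, 35.6% of the GM12878 falls were also called lower in HepG2 and 29.6% of the rises higher, and 638 genes were called in opposite directions.

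Promoters of the genes were read for 4 short motifs on both strands, in the 250 bases before each RefSeq start, with 10943 of 15183 genes matched and 15753 windows. No motif contains another. AP-1 (TGANTCA) was present in 4.48% of all windows, 7.50% of those of genes that fell past 2-fold and 3.86% of those of genes that rose past 2-fold. PU.1 (GAGGAAGT) was present in 2.48%, 4.50% and 1.29%, NF-kB (GGG and TTTCC with any 2 bases between) in 1.97%, 3.11% and 0%, and the E-box CACGTG in 8.30%, 7.61% and 6.44%. The rises past 2-fold had 233 windows, so that 0% is 0 of 233. All called rises held NF-kB in 73 of 3187 windows (2.29%) and all called falls in 94 of 3744 (2.51%). Median GC of the windows was 59.6% for falls past 2-fold, 63.2% for rises past 2-fold and 64% for all genes. Motif shares were not adjusted for GC. These shares are a description of letters and do not show that a factor binds.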

How the data were processed

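Polyadenylated RNA of GM12878 and HepG2 cells was made into stranded paired-end libraries, per the labels' protocols. The deposited tables give, per gene, expected counts (estimated by the authors with RSEM) and TPM, per the file headers; STAR, RSEM and hg38 are named in the submitters' processing notes, while versions, annotation and the use of strand in counting are not given in the sources used here. Genes that overlap or share sequence with others are therefore uncertain. Each file holds 59526 identifiers, of which 58780 are Ensembl genes (40745 with a GENCODE symbol) and 746 others hold 0 counts. In the 4 libraries 4.20 to 4.66% of values were not whole, and counts were rounded.

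Counts were tested with edgeR 4.0.16 (limma 3.58.1, R 4.3.3): genes kept by filterByExpr, TMM scaling, a robust quasi-likelihood fit of all 24 libraries of the pretreatment experiment (12910315 to 22278350 counts each, 12 residual degrees of freedom, common biological coefficient of variation 0.049), 2-sided contrasts, and Benjamini-Hochberg adjustment over all genes tested. A gene was called at an adjusted p under 0.05. Log2 fold changes are BRM014 minus DMSO, SE is the fold change divided by the root of F, and CPM is TMM-scaled except in the sums of marker levels, which use the library total. Differences of effects are interaction contrasts. HepG2 had its own fit of 4 libraries. Tested on simulated counts for the 6 h vehicle comparison (15183 genes), the fit recovered 82.1% of genes changed 1.5-fold, 92.5% at 2-fold and 100% at 4-fold, with 14 false among 197 calls. The simulation changed 67, 67 and 66 genes at those folds, none at very low level, and gave every gene the same spread. In these data far more genes were called and spread differed between genes, so the recovery shares do not carry over.

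Genes named were the 14 largest rises and falls with at least 5 CPM, a symbol and no overlap between groups; CD180, LAX1, PIM1, SMARCA4 and SMARCA2; up to 4 called members of each list by adjusted p; and the 6 largest in each direction of each interaction. List members may be named beside counts of 5 or fewer. The comparison, the lists and the rule were chosen with earlier results of these data known, and no list was given a test of its own. Alternatives were DESeq2 1.42.0 (its size factors in edgeR, and its Wald test), no filter beyond 1 count, the replicate number as a block, the compared groups alone, and each library left out. Replicate numbers did not pair the samples: deviations of same-numbered vehicle 6 h libraries correlated at -0.0558, and over 66 pairs of groups at -0.0686 to 0.0831. Promoters and start sites are from RefSeq (GRCh38.p14).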

Additional observations from a re-analysis of the deposited data

Results flagged for a closer look

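The BRM014 effect in vehicle cells differed between 1 h and 6 h in 2844 genes by the interaction test. Among those named, the change from 1 h to 6 h on the log2 scale was -3.16 for TLR9, -3.03 for ADGRD1, -2.96 for CEACAM1, -2.84 for AKAP6, a scaffold protein for protein kinase A, -2.75 for RAB43 and -2.71 for CCL4. It was 1.95 for AMN1, 1.89 for ZMYM1, 1.85 for C3orf18, 1.82 for ZNF341, 1.74 for MFSD13A and 1.53 for PKD1P6-NPIPP1, a readthrough of pseudogenes. The TLR9 call was lost without BRM014 replicate 1 at 6 h (adjusted p 0.060), the RAB43 call without BRM014 replicate 2 at 6 h (adjusted p 0.071) and the PKD1P6-NPIPP1 call under 5 of the left-out libraries.

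The effect at 6 h in vehicle cells differed from the mean of the effects under IFNg and Dex in 117 genes by the interaction test. The difference was 1.22 for RHOB, 1.17 for UBD, a ubiquitin-like protein induced by interferon gamma, 0.98 for SAP30, 0.94 for ZNF697, 0.86 for SOCS1, a feedback inhibitor of cytokine signalling, and 0.75 for FKBP5. It was -1.37 for NTNG1, -0.88 for CMPK2, -0.88 for ACKR3, a scavenger receptor for CXCL12, -0.85 for XAF1, -0.80 for LBH and -0.69 for CRYBG1. UBD stood at 141 and 198 CPM in DMSO and 13.9 and 14.7 CPM in BRM014 under IFNg, and at 16.3 and 13.1 CPM against 7.69 and 7.61 CPM under Dex. ACKR3 stood at 6.45 and 6.15 CPM in DMSO and 27.5 and 35.5 CPM in BRM014 under Dex. The calls for ACKR3, CMPK2, NTNG1, SOCS1, UBD, XAF1 and ZNF697 were lost under several left-out libraries, and those for LBH, CRYBG1, RHOB, SAP30 and FKBP5 were kept under each.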

How the results depend on the processing

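The 6 h vehicle comparison gave 5820 called genes with DESeq2 size factors, 4744 with DESeq2's Wald test, 5534 with no filter, 5429 with the compared groups alone and 4406 to 4863 with 1 library left out, beside 5846. With 1 library left out the 1 h comparison gave 149 to 203 genes, the change from 1 h to 6 h 2095 to 2466, the IFNg arm 3150 to 4806, the Dex arm 4256 to 4649 and HepG2 3902 to 5590. The difference between vehicle and stimulated cells moved most, with 190 genes under no filter, 68 with the compared groups alone and 41 to 182 with 1 library left out. With the replicate number as a block the counts were 5901 at 6 h, 316 at 1 h, 2890 for the change between times, 5150 under IFNg, 5778 under Dex, 127 for the vehicle difference and 4749 in HepG2. The numbers did not pair the samples, so the block result is a check of the fit alone.

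Of 439 called genes of the lists and the naming rule, 92 lost the call under at least 1 of 9 settings, 91 of them for a left-out library and 3 under the replicate block, and 0 reversed. Of the 134 named by the rule 8 lost it: CD68, DKC1, KIF23, NKG7, PIM2, TRBC2, PKD1P6-NPIPP1 and RAB43. The uncalled genes CD74 and HLA-DRA changed sign: with 1 library left out CD74 ranged from -0.0088 (without DMSO replicate 2) to 0.244 (without DMSO replicate 1), and HLA-DRA from -0.083 (without DMSO replicate 2) to 0.039 (without DMSO replicate 1). Fewer genes were called among those of lowest level, where depth limits what can be seen.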
